A study of Mus musculus with 6 samples.

Results

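Cadherins and protocadherins are adhesion proteins of the cell surface, and their genes were taken from a bulk RNA-seq table as the protein-coding entries whose symbol is Cdh followed by a number or begins with Pcdh. This gave 92 of 47069 genes, with 23 Cdh genes, 12 Pcdh genes outside the gene clusters, 14 Pcdha, 22 Pcdhb and 21 Pcdhg genes. The 57 genes of the Pcdha, Pcdhb and Pcdhg clusters were kept apart from the other 35, because clustered genes share exons or resemble each other closely. The cells were LβT2, an immortalized mouse line of pituitary gonadotropes, the cells that make luteinizing and follicle-stimulating hormone. All 6 libraries came from this line at passage 14, and every sample received GnRH (gonadotropin-releasing hormone) at 2 nM over 40 min before the cells were detached with trypsin. In the fresh group (n = 3) cells were lysed at once, and in the RNA-Best group (n = 3) they were first kept in the RNA-Best reagent in the cold, where the protocol gives a minimum of 4 days. A group without GnRH was not analysed here, so no value below describes a response to the hormone. The sources used here do not give whether replicates were separate cultures, so p-values measure the spread between these samples, which may be technical.

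Classical cadherins bind the same cadherin on a neighbouring cell in the presence of calcium, and inside the cell they bind catenins, which link them to actin. E-cadherin (Cdh1) is typical of epithelia, N-cadherin (Cdh2) of neurons and endocrine cells, and VE-cadherin (Cdh5) of the endothelium. Protocadherins lack the catenin-binding tail of classical cadherins. Clustered protocadherins are expressed in combinations that give neurons individual surface identities, and in the Pcdha and Pcdhg clusters each variable first exon is spliced to constant exons that all genes of that cluster share.

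Starts of 3 genes are shown as examples of a gene that was lower after storage (Cdh15), a gene that was higher (Pcdh17) and a gene without a count in any library (Cdh8). Each runs 5′ to 3′ from 250 bases before to 50 bases after the annotated start, as given by RefSeq on GRCm38.p6, with every CG dinucleotide in capitals. Cdh15 lies at chr8:122848124-122848423 on the plus strand, Pcdh17 at chr14:84443313-84443612 on the plus strand and Cdh8 at chr8:99416422-99416721 on the minus strand.
Cdh15: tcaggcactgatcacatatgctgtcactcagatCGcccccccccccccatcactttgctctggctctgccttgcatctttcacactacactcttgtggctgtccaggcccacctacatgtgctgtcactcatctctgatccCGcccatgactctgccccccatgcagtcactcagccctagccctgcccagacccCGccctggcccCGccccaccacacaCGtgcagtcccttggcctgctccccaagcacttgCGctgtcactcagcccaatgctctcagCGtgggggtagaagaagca
Pcdh17: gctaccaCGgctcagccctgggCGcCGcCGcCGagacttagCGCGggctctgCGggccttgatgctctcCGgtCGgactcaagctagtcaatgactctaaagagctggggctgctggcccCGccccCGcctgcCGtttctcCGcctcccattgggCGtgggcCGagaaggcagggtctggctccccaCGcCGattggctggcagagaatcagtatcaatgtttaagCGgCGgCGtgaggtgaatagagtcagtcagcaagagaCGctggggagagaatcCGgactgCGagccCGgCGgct
Cdh8: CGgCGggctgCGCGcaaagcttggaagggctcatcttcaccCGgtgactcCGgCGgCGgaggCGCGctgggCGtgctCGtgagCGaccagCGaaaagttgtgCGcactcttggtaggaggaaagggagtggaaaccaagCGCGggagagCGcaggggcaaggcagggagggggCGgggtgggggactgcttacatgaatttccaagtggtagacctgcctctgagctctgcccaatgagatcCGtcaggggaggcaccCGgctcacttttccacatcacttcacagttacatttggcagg
The Cdh15 window holds 7 CG, the Pcdh17 window 26 and the Cdh8 window 21, and the median over 32544 distinct promoter windows of this length was 7. Cdh8, with no count, thus had a window nearly as rich in CG as that of the expressed Pcdh17. The letters CANNTG, the E-box that basic helix-loop-helix factors bind and that reads alike on both strands, occurred 4 times in the Cdh15 window, 2 times in that of Cdh8 and 0 times in that of Pcdh17. At least 1 such match was found in 72.3% of all windows. The tables held a window for 22 of the 32 members searched. Among these, the 6 genes with a mean level of at least 5 CPM (counts per 1000000 counts of the library) had 5 to 38 CG, and the 5 genes at 0 in every library had 2 to 21, so the ranges overlapped.

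Levels are given in CPM after TMM scaling, which corrects each library for its size and composition. Library totals ran from 14477304 to 47438746 counts in fresh and from 4909418 to 11999363 in RNA-Best libraries, so depth and storage cannot be told apart. A count of 0 allows up to 3 counts, or 0.0632 to 0.611 CPM depending on the library, and this limit covers counting error only. Of the gonadotrope markers Lhb, Cga, Gnrhr, Nr5a1 and Pitx1 were detected in every library and Fshb had no count. Cga, the common hormone subunit, was the highest, with 1799 to 1842 CPM in fresh and 1405 to 1442 CPM in RNA-Best libraries. Over all 14736 tested genes, edgeR's quasi-likelihood test with Benjamini-Hochberg adjustment called 26.0% higher and 24.8% lower in RNA-Best at an adjusted p under 0.05. The groups did not overlap in 58.0% of tested genes. Differences also followed exonic length across all genes. The median log2 fold change was -0.20 for genes of at most 2000 bases and 0.32 for genes over 10000 bases, and 76.8% of the latter were higher. A second fit removed this trend with an offset for length in each library and called 15.8% of genes higher and 24.8% lower, and some of its values are given beside the results below.

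Of the 92 genes, 59 had a count in every library, 7 had none in any library, and 42 passed the filter on low counts and were tested. Among the 42, 20 were higher in RNA-Best, 1 was lower and 21 were not called, and the groups did not overlap in 22. With the length offset 16 were higher and 1 lower. The shares over all tested genes were 26.0% higher, 24.8% lower and 58.0% without overlap, and 15.8% higher and 24.8% lower with the offset. The median log2 fold change was 0.30 for these genes, with a median exonic length of 5278 bases, against -0.0074 for all tested genes, whose median length was 3924 bases. With the offset the medians were 0.21 and -0.0366. Of the tested genes 6 reached the filter's level in fewer than 3 fresh libraries (Pcdh8, Pcdhac1, Pcdhb2, Pcdhb11, Pcdhb21 and Pcdhga2), so they passed partly through RNA-Best libraries. In bulk RNA, fewer cells with a transcript and less of it per cell cannot be told apart.

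**Figure D1:**
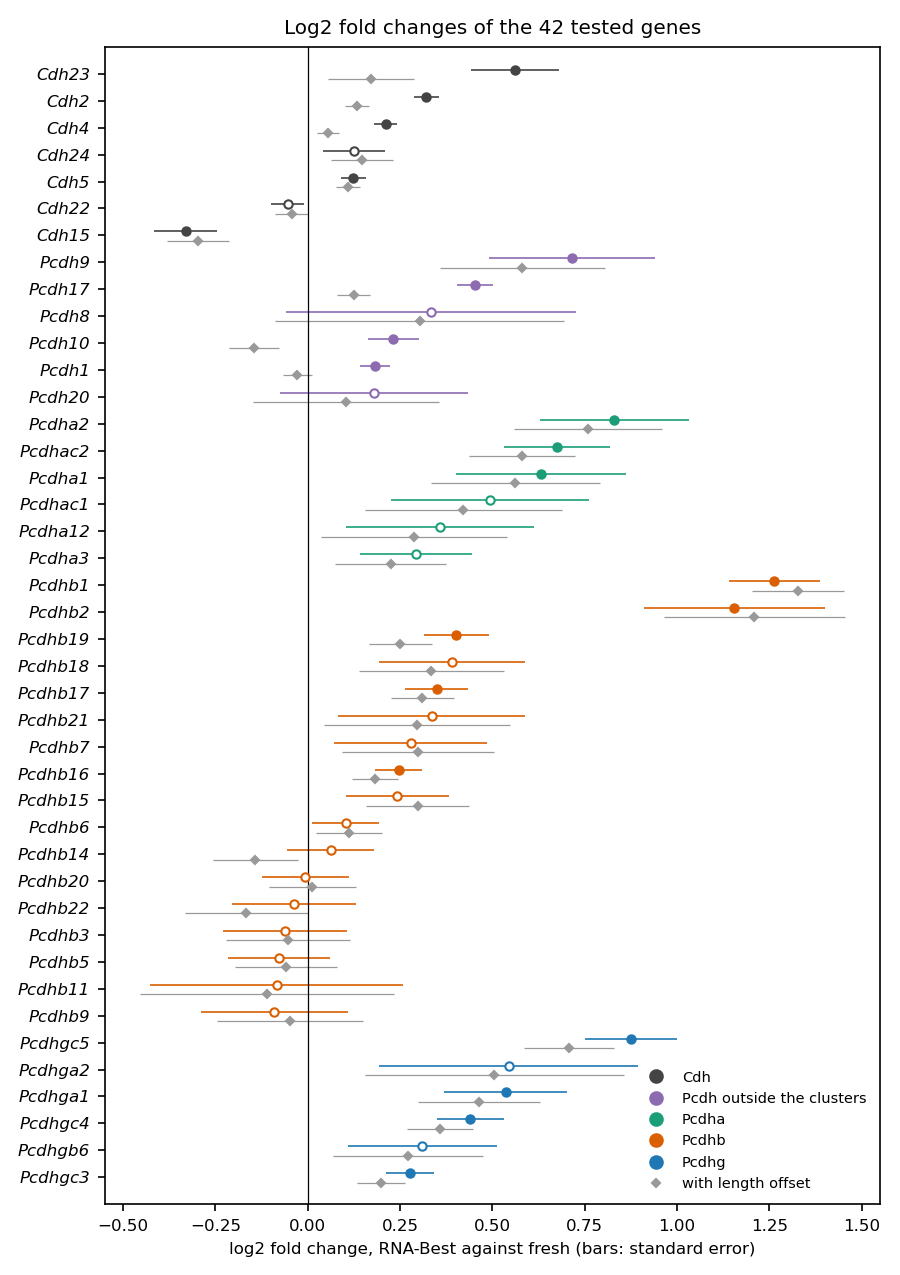
Log2 fold change of RNA-Best against fresh libraries on the x axis for the 42 tested genes, by family, with bars for the standard error. Filled circles passed an adjusted p of 0.05, open circles did not, and grey diamonds show the same genes with the length offset. Cdh15 is the filled circle below 0, and Pcdhb1 and Pcdhb2 lie farthest above it.

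Outside the clusters 13 of 35 genes were tested, of which 8 were higher (Cdh2, Cdh4, Cdh5, Cdh23, Pcdh1, Pcdh9, Pcdh10 and Pcdh17), 1 was lower (Cdh15) and 4 were not called (Cdh22, Cdh24, Pcdh8 and Pcdh20). With the length offset 4 remained higher (Cdh2, Cdh5, Pcdh9 and Pcdh17) and Cdh15 remained lower. Of all tested genes 26.0% were higher and 24.8% lower, or 15.8% and 24.8% with the offset. Thinning every library to the smallest total left 5 calls among 10 tested genes, all higher, where 21.3% of all genes tested were called higher and 19.7% lower. The median log2 fold change was 0.21, and 0.11 with the offset.

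Per kilobase of exon, the fresh libraries ranked Cdh5 first, at 35.2 to 35.8 CPM per kb. Cdh4 followed at 26.3 to 27.3, Cdh2 at 21.6 to 23.9 and Cdh22 at 17.0 to 17.9 CPM per kb. Neighbours among these did not overlap. Pcdh1 was the highest protocadherin on this scale, at 9.03 to 9.84 CPM per kb, followed by Cdh24 at 5.21 to 6.30, Cdh15 at 4.80 to 5.15 and Pcdh17 at 3.57 to 4.00. Of these, Cdh24 lay above Cdh15 by a gap smaller than its own range. Pcdh10 lay at 1.24 to 1.36 and Cdh23 at 0.279 to 0.322 CPM per kb, and Pcdh20, Pcdh9 and Pcdh8 lay below 0.25 CPM per kb, where the range of Pcdh9 overlapped those of the other two and Pcdh20 lay above Pcdh8. These levels assume that all annotated exons of a gene were transcribed. Cdh2, Cdh4, Cdh5 and Cdh22 together held 93.3% ± 0.35 (SD, n = 3) of the summed Cdh CPM in fresh and 94.0% ± 0.206 in RNA-Best libraries.

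**Figure D2:**
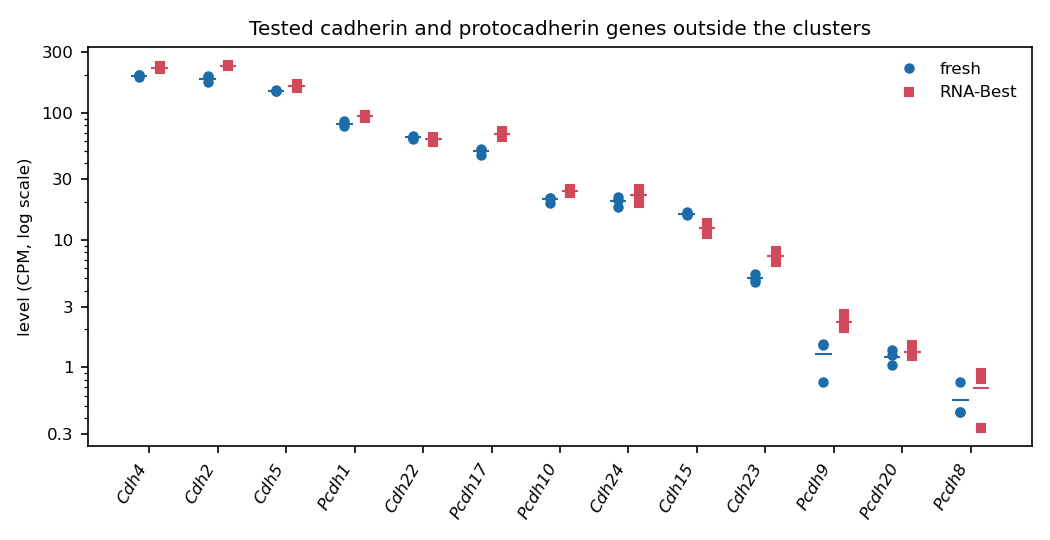
CPM on a log axis for each library (circles fresh, squares RNA-Best, lines the group means) of the 13 tested genes outside the clusters, in order of mean level. The circles and squares of Cdh4, Cdh2 and Pcdh17 do not overlap, and Cdh15 is the gene whose RNA-Best squares all lie below its fresh circles.

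Among the most abundant classical cadherins, N-cadherin and R-cadherin were higher after storage. Cdh2 (N-cadherin) had 190, 193 and 174 CPM in the fresh libraries and 237, 233 and 231 CPM in the RNA-Best libraries. The groups did not overlap, and the log2 fold change was 0.32 (SE 0.034, adjusted p = 7.75e-10), or 0.13 with the length offset (adjusted p = 0.00106). Cdh4 (R-cadherin), first described in the retina, had 198, 197 and 191 CPM in fresh and 224, 222 and 232 CPM in RNA-Best libraries. All RNA-Best values were above all fresh values, with a log2 fold change of 0.21 (SE 0.031, adjusted p = 5.36e-07). With the length offset this call was lost (0.06, adjusted p = 0.152).

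VE-cadherin transcripts were abundant in this gonadotrope line. Cdh5 had 150, 150 and 148 CPM in fresh and 156, 164 and 168 CPM in RNA-Best libraries. The groups did not overlap, but the difference was small, with a log2 fold change of 0.12 (SE 0.034, adjusted p = 0.00228), and it was not called without RNA-Best replicate 3 (0.09, adjusted p = 0.0694) or with no filter on low counts (0.08, adjusted p = 0.0957). Of 5 other endothelial markers, Pecam1 had a mean of 42.6 CPM in fresh and 38.7 CPM in RNA-Best libraries, and Kdr of 1.34 and 1.61 CPM. Tek and Cldn5 were at or below 0.203 CPM in each library and Emcn had no count. Their summed level was 43.4 to 44.7 CPM in fresh and 39.4 to 42.4 CPM in RNA-Best libraries, most of it from Pecam1. Fibroblast markers summed to at most 0.322 CPM and macrophage markers to at most 0.406 CPM in any library. Markers of other pituitary hormone cells summed to 0.793 to 1.11 CPM in fresh and 1.41 to 2.26 CPM in RNA-Best libraries. Markers of folliculostellate and stem cells summed to 2.57 to 2.65 and 0.609 to 2.99 CPM. The part of these lists in the results was not tested.

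The type II cadherins Cdh22 and Cdh24 were not called. Cdh22, a cadherin of brain and pituitary, had 66.3, 62.8 and 63.0 CPM in fresh and 64.2, 62.8 and 59.5 CPM in RNA-Best libraries. The groups overlapped, with a log2 fold change of -0.05 (SE 0.045, adjusted p = 0.335). Cdh24 had 18.2, 22.0 and 20.5 CPM in fresh and 23.4, 25.2 and 19.7 CPM in RNA-Best libraries. Its groups overlapped as well, with a log2 fold change of 0.13 (SE 0.084, adjusted p = 0.224). Without fresh replicate 2 it was called higher (0.22, adjusted p = 0.0301), and likewise without RNA-Best replicate 3 (0.25, adjusted p = 0.0402) and with a replicate block and the length offset together (0.20, adjusted p = 0.0364).

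Cdh15 (M-cadherin), a cadherin best known from muscle precursor cells, was the member that fell. It had 16.1, 15.6 and 16.7 CPM in fresh and 12.3, 11.2 and 13.7 CPM in RNA-Best libraries. All RNA-Best values were below all fresh values, and the log2 fold change was -0.33 (SE 0.085, adjusted p = 0.00137) and -0.30 with the length offset (adjusted p = 0.00504). After thinning it was -0.23 and no longer called (adjusted p = 0.215). Its exonic length was 3251 bases, in a range (2000 to 4000 bases) where the median of all tested genes was -0.10. Cdh23, a long cadherin of hair-cell tip links, had 4.93, 5.46 and 4.72 CPM in fresh and 8.15, 6.70 and 7.55 CPM in RNA-Best libraries. It was higher without overlap (log2 fold change 0.56, SE 0.12, adjusted p = 0.000177). With 16939 bases of exon it was not called with the length offset (0.17, adjusted p = 0.265), nor after thinning (0.35, adjusted p = 0.174).

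Several protocadherins outside the clusters act in cell sorting and axon growth. Of the 6 tested, 4 were higher, and 2 with the length offset, beside 26.0% and 15.8% of all tested genes. Pcdh1 had 86.6, 81.2 and 79.4 CPM in fresh and 94.95, 96.66 and 91.85 CPM in RNA-Best libraries. The groups did not overlap, and the log2 fold change was 0.18 (SE 0.041, adjusted p = 0.000352). With the length offset it was -0.03 (adjusted p = 0.617). Pcdh17 had 52.0, 51.1 and 46.4 CPM in fresh and 71.5, 64.4 and 69.7 CPM in RNA-Best libraries. All its RNA-Best values exceeded all fresh values, with a log2 fold change of 0.45 (SE 0.048, adjusted p = 6.49e-10) and of 0.12 with the length offset (adjusted p = 0.026).

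Pcdh10 had 19.6, 21.5 and 21.4 CPM in fresh and 23.5, 24.2 and 25.1 CPM in RNA-Best libraries. The groups did not overlap, and the log2 fold change of 0.23 (SE 0.069, adjusted p = 0.00486) turned to -0.14 with the length offset (adjusted p = 0.0884). The call was also lost after thinning (0.17, adjusted p = 0.238) and without RNA-Best replicate 3 (0.20, adjusted p = 0.0741). Pcdh9 was low, with 1.54, 1.5 and 0.764 CPM in fresh and 2.60, 2.03 and 2.24 CPM in RNA-Best libraries. Its groups did not overlap and its log2 fold change was the highest outside the clusters, at 0.72 (SE 0.225, adjusted p = 0.0077), but without RNA-Best replicate 1 it was 0.62 and not called (adjusted p = 0.071). Pcdh20 and Pcdh8 had log2 fold changes of 0.18 (adjusted p = 0.613) and 0.34 (adjusted p = 0.524) at means of 1.27 and 0.617 CPM.

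**Figure D3:**
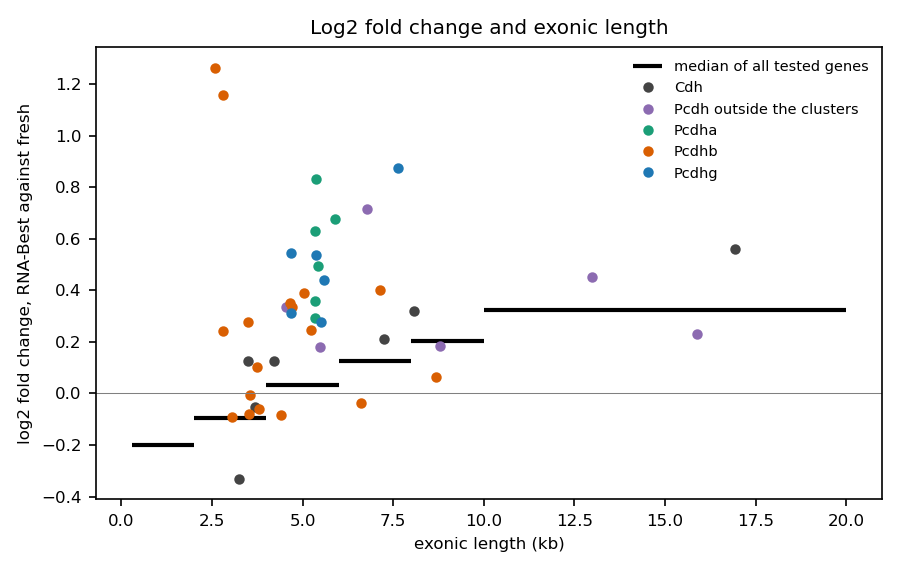
Log2 fold change of RNA-Best against fresh on the y axis and exonic length in kb on the x axis, with a point for each of the 42 tested genes and black lines for the median of all tested genes in 6 length ranges, the last drawn to 20 kb. The lines climb from -0.20 to 0.32, and Pcdhb1 and Pcdhb2 lie above 1 at lengths under 3 kb.

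Set against genes of like length, the tested members outside the clusters had medians of -0.05 at 2000 to 4000 bases (3 genes), 0.18 at 4000 to 6000 (3 genes), 0.46 at 6000 to 8000 (2 genes), 0.25 at 8000 to 10000 (2 genes) and 0.45 over 10000 bases (3 genes). All tested genes had medians of -0.10, 0.03, 0.13, 0.20 and 0.32 in these ranges. The clustered genes had 0.10 (9 genes), 0.37 (16 genes), 0.40 (3 genes) and 0.06 (1 gene) in the first 4 ranges and none in the last. The gene at 0.06, Pcdhb14, thus lay below the median of all genes of its range. These are descriptions of small groups and carry no test. Exonic lengths of Pcdha and Pcdhg genes include shared exons. If reads there were not counted for a gene, its length range and its value with the offset rest on too great a length.

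The clusters lie next to each other on chromosome 18 in GRCm38, with Pcdha at chr18:36930184-37187661, Pcdhb at chr18:37264938-37524479 and Pcdhg at chr18:37661793-37841873. All 14 Pcdha genes end within 10 bases of each other in the annotation, and so do all 21 Pcdhg genes, since their constant exons lie there. Of the exonic bases of tested genes, 48.6% to 63.6% were shared with another gene in Pcdha, 37.9% to 66.9% in Pcdhg, and 0% to 9.67% in Pcdhb, whose genes have no constant exons. How the counting assigned reads in shared exons is not given in the sources used here. Pcdhga10, with 100% of its exonic bases shared, had no count. Pcdha4, with 93.0% shared, had at most 1 count in a library. Whether reads in shared exons were left out was not tested. The value of a single Pcdha or Pcdhg gene is therefore uncertain, and a Pcdhb value can hold reads of a near copy.

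Some deposited values hold parts of counts, and how these arose was not tested. In the table, 26.4% of values above 0 lay more than 0.001 from a whole number. This share was 7.63% (9 of 118 values) outside the clusters and 24.8% (77 of 311 values) in them, with 42.7% in Pcdha (32 of 75), 27.7% in Pcdhb (36 of 130) and 8.49% in Pcdhg (9 of 106). Pcdhg was therefore near the genes outside the clusters although its genes share constant exons as those of Pcdha do. Parts occurred in 9 Pcdha, 17 Pcdhb and 6 Pcdhg genes, and outside the clusters in Cdh2 (5 libraries) and Cdh11 (4 libraries). Of the 86 values with a part, 35 ended in 0.5. By library the clustered genes had 32.7%, 29.6% and 32.0% in fresh and 12.0%, 12.0% and 28.8% in RNA-Best libraries, and the groups did not overlap. The same held over all genes, with 25.1% to 30.4% in fresh and 22.4% to 24.6% in RNA-Best libraries. The fresh libraries were also the deeper ones, and the part of depth in this difference was not tested.

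**Figure D4:**
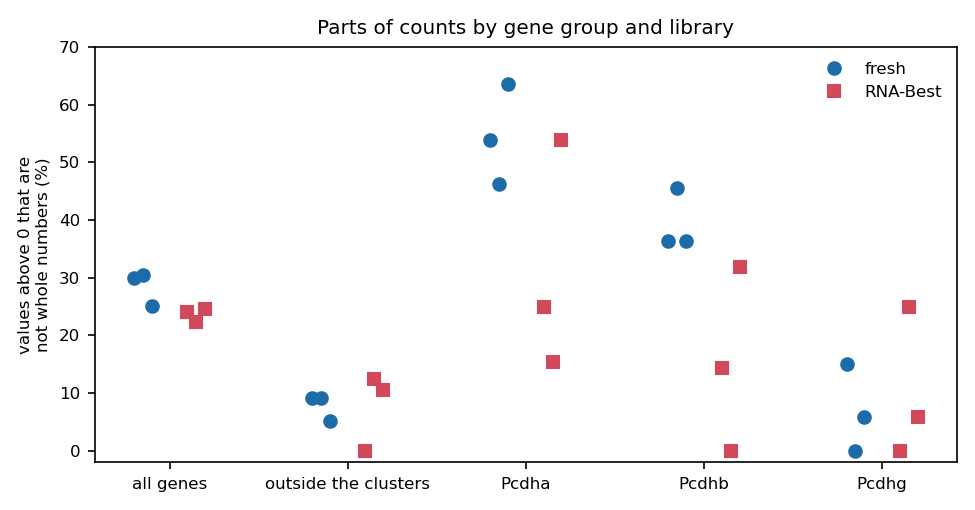
Share of values above 0 that are not whole numbers, in percent, for all genes, the genes outside the clusters and each cluster, with a point for each library (circles fresh, squares RNA-Best). Pcdha lies between 15.4% and 63.6%, and in RNA-Best replicate 2 it is below Pcdhg, which is at 25.0% there.

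Of the 57 clustered genes, 44 had a count in every library and 29 were tested. Among these, 12 were higher in RNA-Best, 0 were lower and 17 were not called, and the groups did not overlap in 13. With the length offset 12 were higher and 0 lower. Over all tested genes 26.0% were higher, 24.8% lower and 58.0% without overlap, and 15.8% were higher and 24.8% lower with the offset. After thinning 8 of 20 tested genes were called, beside the shares of all genes given above for that fit. The median log2 fold change was 0.34, and 0.30 with the offset. By cluster, 3 of 6 tested Pcdha genes, 5 of 17 Pcdhb genes and 4 of 6 Pcdhg genes were higher.

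By summed CPM the Pcdha cluster was the lowest. This ranking does not allow for reads in shared exons, which may be missing from the Pcdha and Pcdhg sums. Pcdha genes summed to 14.0, 14.1 and 13.3 CPM in fresh and 22.7, 22.6 and 19.1 CPM in RNA-Best libraries, a ratio of means of 1.56. Every RNA-Best sum was above every fresh sum. C-type genes are not chosen at random among cells, as the variable exons outside this type are. Pcdhac2, a C-type gene next to the constant exons, had the highest level, with 4.86, 3.79 and 3.68 CPM in fresh and 7.809, 7.108 and 5.725 CPM in RNA-Best libraries. Its groups did not overlap and its log2 fold change was 0.68 (SE 0.144, adjusted p = 0.000159), but after thinning it was 0.49 and not called (adjusted p = 0.0609). At the other end of the cluster Pcdha2 had 1.36, 1.72 and 1.84 CPM in fresh and 2.52, 3.86 and 2.61 CPM in RNA-Best libraries. It was higher by 0.83 on the log2 scale (SE 0.202, adjusted p = 0.000762), and not called after thinning (0.50, adjusted p = 0.234). Pcdha1 was higher by 0.63 (SE 0.23, adjusted p = 0.0212), a call lost under DESeq2 (adjusted p = 0.0851), with no filter (adjusted p = 0.0537) and without fresh replicate 1, RNA-Best replicate 1 or RNA-Best replicate 2 (adjusted p = 0.0866, 0.121 and 0.122). Pcdha4 had the lowest value of the cluster, at a mean of 0.0295 CPM, with 93.0% of its exonic bases shared with other genes. The C-type genes Pcdhac1 and Pcdhac2 held 36.1% ± 4.65 (SD, n = 3) of the Pcdha sum in fresh and 38.4% ± 2.71 in RNA-Best libraries, which differed by less than the spread.

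The Pcdhb cluster was the highest by summed CPM, with the same limit on this ranking. Its sums were 104, 104 and 97.4 CPM in fresh and 123.2, 123.5 and 125.7 CPM in RNA-Best libraries, a ratio of means of 1.22. Its first genes along the chromosome, Pcdhb1 and Pcdhb2, had the largest log2 fold changes of the 42 tested genes. Pcdhb1 had 5.033, 4.359 and 3.265 CPM in fresh and 11.5, 9.14 and 10.8 CPM in RNA-Best libraries. Each RNA-Best value lay well above each fresh value, a 2.49-fold difference of means with a log2 fold change of 1.26 (SE 0.123, adjusted p = 1.14e-10) and of 1.33 with the length offset. Pcdhb1 made up 4.13% ± 0.739 (SD, n = 3) of the Pcdhb sum in fresh and 8.45% ± 0.991 in RNA-Best libraries. Pcdhb2 had 0.917, 0.7195 and 0.834 CPM in fresh and 1.811, 1.625 and 1.908 CPM in RNA-Best libraries. Its groups did not overlap either, with a log2 fold change of 1.16 (SE 0.244, adjusted p = 0.000149) and of 1.21 with the offset. Pcdhb2 reached the level of the filter in 2 fresh and all 3 RNA-Best libraries, and it was not tested after thinning. These genes have 2588 and 2813 bases of exon, of which 0% is shared with another annotated gene.

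Other Pcdhb genes moved less or were not called. Pcdhb16, the most abundant, had 21.9, 21.6 and 21.8 CPM in fresh and 26.4, 25.8 and 25.3 CPM in RNA-Best libraries. The fresh values lay close together and below all RNA-Best values, with a log2 fold change of 0.25 (SE 0.064, adjusted p = 0.00143), and of 0.41 after thinning (adjusted p = 0.00103). Pcdhb19 had 11.1, 11.9 and 10.1 CPM in fresh and 14.9, 15.8 and 14.5 CPM in RNA-Best libraries, with a log2 fold change of 0.40 (SE 0.088, adjusted p = 0.00023), or 0.25 with the length offset. Pcdhb17 was the remaining Pcdhb gene called, at 0.35 (adjusted p = 0.000856). Next to Pcdhb2 along the chromosome, Pcdhb3 had a log2 fold change of -0.06 (adjusted p = 0.787) and Pcdhb5 of -0.08 (adjusted p = 0.671), and the groups overlapped in both. Pcdhb12 had the lowest value, at a mean of 0.135 CPM, with 63.5% of its exonic bases shared with other genes. Pcdhb3, Pcdhb5 and Pcdhb17 were singled out after their values were seen.

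**Figure D5:**
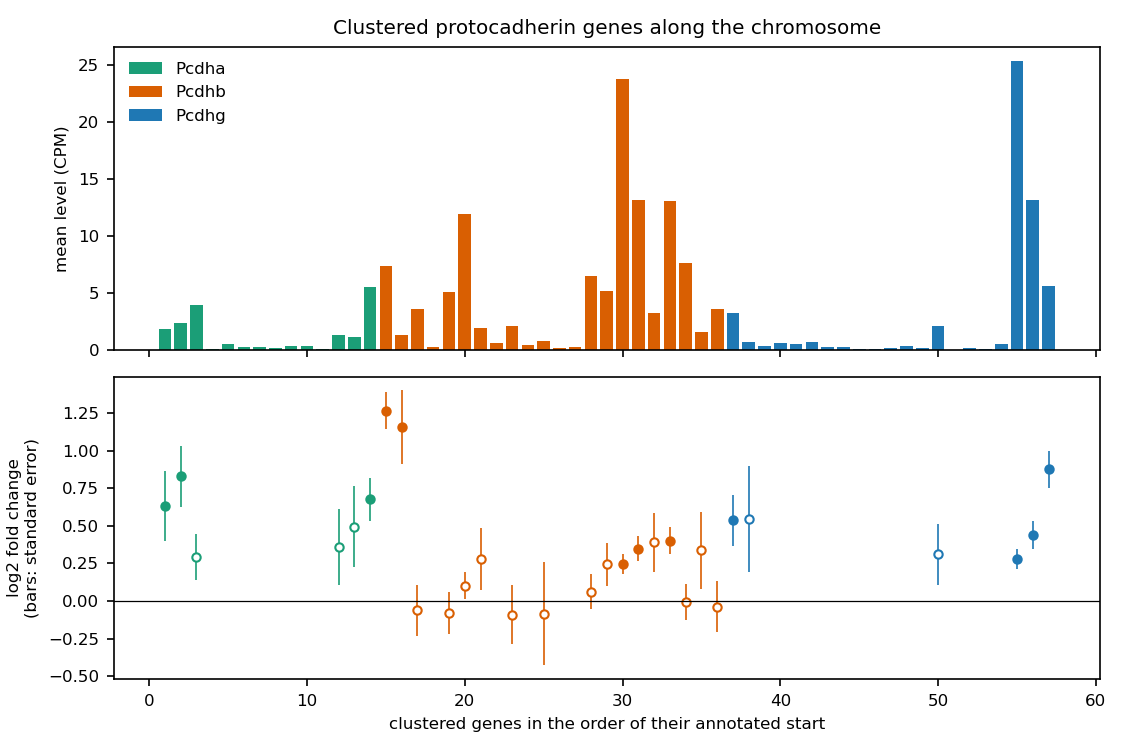
Mean CPM over the 6 libraries (upper panel) and log2 fold change of RNA-Best against fresh with its standard error (lower panel, tested genes, filled where called) for the 57 clustered genes in the order of their annotated start. Pcdhb1 and Pcdhb2, at the start of the Pcdhb cluster, stand above 1, and in the Pcdhg cluster Pcdhgc3, Pcdhgc4 and Pcdhgc5 at its end are the most abundant.

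The Pcdhg cluster summed to 47.9, 46.9 and 42.6 CPM in fresh and 61.5, 61.7 and 62.8 CPM in RNA-Best libraries, without overlap and with a ratio of means of 1.35. Most of it was C-type genes, which many cells express together. Pcdhgc3, Pcdhgc4 and Pcdhgc5 made up 82.2% ± 1.57 (SD, n = 3) of the sum in fresh and 81.7% ± 1.54 in RNA-Best libraries, which differed by less than the spread. Pcdhgc3 had 24.3, 22.6 and 21.3 CPM in fresh and 27.8, 28.0 and 28.0 CPM in RNA-Best libraries. It was higher by 0.28 on the log2 scale (SE 0.066, adjusted p = 0.000566), while its share of the cluster was 49.7% ± 1.25 in fresh and 45.1% ± 0.465 in RNA-Best libraries.

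Pcdhgc5 had 3.917, 4.105 and 3.682 CPM in fresh and 7.58, 7.51 and 6.93 CPM in RNA-Best libraries. Its groups were far apart, with a log2 fold change of 0.88 (SE 0.124, adjusted p = 2.72e-07) and of 0.71 with the length offset. Its share of the cluster was 8.53% ± 0.314 in fresh and 11.9% ± 0.708 in RNA-Best libraries, with no overlap of the groups. Pcdhgc4 was higher by 0.44 (SE 0.091, adjusted p = 0.000112). Pcdhga1, the first gene of the cluster, was higher by 0.54 (SE 0.167, adjusted p = 0.00723), by 0.83 after thinning (adjusted p = 0.0219), and not called without RNA-Best replicate 3 (0.51, adjusted p = 0.068). Pcdhga10 had no count in any library, but 100% of its exonic bases are shared with other genes, so its expression cannot be judged.

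The 50 genes under the filter included E-cadherin. Cdh1 had 29, 23 and 7 counts in fresh and 5, 3 and 9 counts in the shallower RNA-Best libraries, a mean of 0.602 CPM. Cdh11, a cadherin of mesenchymal cells, had a mean of 0.606 CPM and Pcdhgb2 of 0.657 CPM. None of the 3 had a log2 fold change that passed the test in a fit with no filter on low counts. Cdh6, Cdh7, Cdh8, Cdh10, Cdh12 and Cdh13, mostly type II cadherins of neurons, had no count in any library. In that fit 1 of the 43 genes under the filter with a count was called, where 11.9% of all 27250 fitted genes were called higher and 16.1% lower, and it was singled out after its values were seen. Pcdhgb1 had 5, 6 and 1 counts in fresh libraries (0.124, 0.127 and 0.0695 CPM) and 6, 8.5 and 7 counts in RNA-Best libraries (0.679, 1.73 and 0.581 CPM). The groups did not overlap in CPM, and the log2 fold change was 2.68 (SE 0.516, adjusted p = 1.69e-06). It rests on few counts, and 54.6% of its exonic bases are shared with other genes.

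Genes that work with cadherins were counted from 7 lists with 73 genes in the table, of which 51 were tested, 24 were higher and 8 lower in RNA-Best, or 16 and 11 with the length offset. Their median log2 fold change was 0.17. Over all tested genes 26.0% were higher and 24.8% lower, or 15.8% and 24.8% with the offset, and these shares stand beside each list below. Of 11 tested catenins and adaptors 4 were higher and 2 lower. Ctnnb1 (β-catenin), which binds the tail of classical cadherins, had means of 584 CPM in fresh and 606 CPM in RNA-Best libraries and was not called (log2 fold change 0.06, adjusted p = 0.0808, and -0.01 with the offset). Limma voom called it higher (0.06, adjusted p = 0.0455). Ctnna1 (α-catenin), the link to actin, was higher by 0.16 (adjusted p = 4.18e-05), with 0.03 and no call with the offset (adjusted p = 0.399), and Vcl (vinculin) and Afdn (afadin) were higher by 0.61 and 0.47 on the log2 scale, and by 0.42 and 0.21 with the offset. Pkp4, of the p120 family, was higher by 0.23 (adjusted p = 1.43e-05), and by 0.14 with the offset. Ctnnd1 (p120 catenin), which holds cadherins at the surface, was lower at a log2 fold change of -0.28 (adjusted p = 0.00034) and at -0.43 with the offset, with -0.18 and no call without RNA-Best replicate 3 (adjusted p = 0.0543). Jup (plakoglobin) was lower as well, at -0.17 (adjusted p = 0.00559) and at -0.29 with the offset, with -0.11 and no call after thinning (adjusted p = 0.306).

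Of the desmosome genes 10 of 13 stayed under 1 CPM in every library, and Dsp (desmoplakin) and Dsg2 (desmoglein 2) were higher, by 0.47 and 0.31 on the log2 scale, and by 0.23 and 0.12 with the length offset. Among other genes of the cadherin superfamily 5 of 11 tested were higher and 2 lower. The giant cadherin Fat4 had the largest log2 fold change of them, 0.85 (SE 0.037, adjusted p = 2.06e-19), and 0.46 with the length offset. Fat1 was at 0.48 and Celsr3 at 0.44. With the offset Fat1 was at 0.10 and not called (adjusted p = 0.152), and Celsr3 was at 0.14 and still called (adjusted p = 0.018). Clstn2, at 0.47 (adjusted p = 0.0403), lost its call with the offset (0.38, adjusted p = 0.112), under DESeq2 (0.44, adjusted p = 0.181), with no filter (0.42, adjusted p = 0.0975), after thinning (0.50, adjusted p = 0.234) and when any of fresh replicates 1 and 2 and RNA-Best replicates 2 and 3 was left out. Of 4 tested nectins, immunoglobulin-like adhesion proteins beside cadherins, 2 were lower, Nectin2 at -0.23 and Nectin1 at -0.11 (-0.20 and -0.19 with the offset), and 0 were higher, with a list median of 0.07.

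Of 4 tested repressors of E-cadherin, Zeb2 and Zeb1 were higher, by 0.70 and 0.42 on the log2 scale. Snai2 and Tcf3 were not called (-0.03 and -0.08). With the length offset neither Zeb2 nor Zeb1 was called (0.28, adjusted p = 0.14, and 0.16, adjusted p = 0.0615). Of 6 tested proteases that cleave cadherins or process them, Adam10 was higher at 0.24, and Capn1 and Adam15 were lower at -0.19 each (-0.16 and -0.30 with the offset). Adam15 was not called under DESeq2 (adjusted p = 0.167), after thinning or without fresh replicate 1, RNA-Best replicate 1 or RNA-Best replicate 3, and Capn1 was not called after thinning or without RNA-Best replicate 3. Of 12 factors that act on the protocadherin clusters, such as CTCF and cohesin, 10 were higher and 0 lower, and 8 and 1 with the length offset. The shares over all tested genes were 26.0% and 24.8%, and 15.8% and 24.8% with the offset. Nipbl, which loads cohesin, was higher by 0.80 (SE 0.035, adjusted p = 1.55e-19), and Smchd1, which helps to silence the clusters, by 0.41 (SE 0.034, adjusted p = 2.43e-12). With the offset Nipbl stayed at 0.56 and Smchd1 moved to -0.02. The cohesin subunits Stag1 and Stag2 were higher by 0.35 and 0.31. With the offset Stag1 was at 0.05 and not called (adjusted p = 0.447), and Stag2 was at 0.12 and still called (adjusted p = 0.00282).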

How the data were processed

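The authors aligned single reads with STAR 2.5.1b to GRCm38 (GENCODE M8) and counted them with featureCounts 1.5.0-p1. They deposited estimated counts for each gene that were not scaled for library size, some with parts of counts. Whether the counting used the strand of reads is not given in the sources used here, so overlapping genes on opposite strands may share reads. Symbols, exonic lengths and positions came from GENCODE M21 on the same assembly (46574 genes matched by identifier). Pcdhgb8, of another biotype there, was left out, and the symbol Pcdha11 has 2 identifiers. A gonadotrope marker is not reported here.

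Counts were rounded and tested with edgeR 4.0.16 in R 4.3.3 (quasi-likelihood test, TMM factors, filterByExpr with a minimum count of 10) with Benjamini-Hochberg adjustment over all tested genes. The study's methods used voom, run here with limma 3.58.1 as an alternative beside DESeq2 1.42.0. The length offset was a loess fit with a span of 0.5 in each library. Scripts were tested on simulated data. Other alternatives were the filter, rounding, thinning to 4909268 counts, a replicate block and leaving out each library. Library pairs of a group had a chi-square of 1.08 to 2.21 per gene, above sampling noise. Each library was treated as a replicate, but this excess may be technical and does not show separate cultures. The members, lists and tests were chosen with earlier results of these data known.

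Outside the clusters all tested genes are named, with values per library for the 10 highest by mean CPM and, among the called, the 3 largest and 3 smallest log2 fold changes. In each cluster the highest and lowest gene and up to 3 called genes with the largest absolute log2 fold change are named, under the filter the 3 highest genes, and per partner list up to 4 called genes with the largest absolute log2 fold change, plus Ctnnb1, Ctnna1, Ctnnd1 and Jup.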

Additional observations from a re-analysis of the deposited data

How the results depend on the processing

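The number of genes called outside the clusters was 9 and fell to 5 with the length offset (4 higher, 1 lower) and to 5 after thinning (5 higher, 0 lower). Their median log2 fold change of 0.21 fell to 0.11 under the length offset and to 0.14 without a filter, where 29 genes were fitted. Leaving out 1 library gave 8 to 10 calls outside the clusters, 11 to 13 in the clusters, 27 to 33 among the partner genes and a median of 0.19 to 0.23. With a replicate block there were 9, 12 and 30 calls and a median of 0.21, and with the block and the length offset 6, 12 and 28 calls and a median of 0.10. Equal numbers did not pair the samples (correlations of -0.00844, 0.0121 and -0.0077).

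The sign turned for Pcdh1 (-0.028 with the length offset, -0.023 with the block as well), Pcdh10 (-0.145 and -0.162), Ctnnb1 (-0.009 and -0.01) and Smchd1 (-0.02 and -0.024). Pcdh8, which was never called, ranged from -0.056 without RNA-Best replicate 1 to 0.827 without RNA-Best replicate 3. The cause was not tested beyond what the offset itself removes. Of the values of single members under the alternatives, 348 kept direction and side of the threshold, 19 lost and 3 gained a call and 5 changed sign. For partner genes these numbers were 350, 29, 1 and 4. Taking the lowest value of the Pcdha and Pcdhg clusters from each gene left 12 calls in the clusters. This could change nothing, because that lowest value was 0 in every library, so it is no check on shared reads. A tolerance of 0.01 left the share of parts of counts at 24.8%. Depth limits the 50 untested members, since a count of 0 in the shallowest library allows up to 0.611 CPM.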
